A study of Mus musculus with 57 samples.

Results

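The rows described here are the spliceosomal small nuclear RNA (snRNA) genes that a total RNA-seq survey of mouse preimplantation development measured at an appreciable level. A row was taken when GENCODE M21 gave it the biotype snRNA and its mean level was at least 5 FPKM (fragment counts scaled by gene length and by library size) in any of 8 stages. This gave 48 of 1383 snRNA rows, in a table of 59119 rows. The 8 stages were the MII oocyte, the zygote, the early 2-cell (E2-cell), the late 2-cell (L2-cell), the 4-cell, the 8-cell, the morula and the blastocyst, all C57BL/6 wild type, with 2 columns each and approximately 150 to 200 embryos behind a sample. Because these stage values chose the rows, they are given as a description with no test.

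The rule did not use values of the other columns, although the members were chosen with earlier results of these data known. Wild-type BDF1 embryos were sampled at 14, 17 and 20 h after fertilization (2 columns each). In a knockdown (KD) experiment, BDF1 oocytes received an antisense oligonucleotide at 20 uM against the long noncoding RNA LncR-3363, and were collected as KD-1cell (4 columns) and KD-2cell (1 column). The 4 Ctrl columns carry no stage or injection in the labels. In a knockout experiment, the repeat element MT2Mm was targeted in BDF1 oocytes from animals of 6 to 8 weeks, by injecting Cas9 mRNA (100 ng/uL) and a guide (150 ng/uL). Late1c and Early2c are names for the late 1-cell and early 2-cell embryos of this experiment, each with 3 knockout and 3 control columns. Injections were of 5 to 10 pL into MII oocytes, which were then fertilized in vitro with BDF1 sperm. A genome edit made by injection can leave unedited copies in an embryo, and the extent of knockdown or of editing was not measured here, since neither target was matched to a row of the table.

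Small nuclear RNAs are the RNA cores of the particles that remove introns. U1 pairs with the 5' splice site, U2 pairs with the branch point, U5 holds the exon ends, and U6 takes part in catalysis after it is released from U4. U11 and U12 take the places of U1 and U2 in the minor spliceosome, which removes a small class of introns. Most of these RNAs are made by RNA polymerase II from short genes present in many copies, whereas U6 is made by RNA polymerase III. Mouse U1 comes in a U1a form, found in all tissues, and a U1b form known from embryonic tissue. A mouse embryo begins to transcribe its own genome around the end of the 1-cell stage and more strongly at the 2-cell stage.

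By sequence, each member was placed with the annotated snRNA it resembled at 70% identity or more. There were 12 U1a, 9 U1b, 12 U2, 7 U5, 2 U12 and 1 U11 members. Gm25047 was nearest to Rnu6, at 80.4% identity. The other 4 members had no such match to a named gene and are called by length: Gm24265 and Gm24407 (141 bases), Gm25541 (126 bases) and Gm22710 (125 bases). The annotation names no member as U4, which does not show that U4 is absent, since these 4 members have no named match. No single row of U6 itself reached the threshold. There were 307 snRNA rows at least 90% identical to Rnu6, 43 of them with its exact sequence, and the highest stage mean among them was 4.98 FPKM. Of these rows, 20 had a stage mean of at least 1 FPKM, and their summed level was 59.7 FPKM in its highest stage. How reads were shared among identical copies is not stated for the deposited values.

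The members fell into 34 distinct sequences, and 20 of the 48 shared their sequence with another annotated snRNA, so rows of one sequence are not independent measurements. Sequences of the main forms are shown because the results turn on how forms of one family differ. They are the GENCODE M21 transcript sequences, on GRCm38, the build of the table, and are read 5' to 3' as DNA. U1a is represented by Rnu1a1 (chr11:87422867-87423030, plus strand, within Tex14) and U1b by Rnu1b2 (chr3:96374021-96374185, plus strand, intergenic). Capitals mark bases that differ between them or are missing from the other. Gm22513 (chr12:54696782-54696945, plus strand, intergenic), the U1 row with the highest stage mean, differs from Rnu1a1 by T60C, counted from the 5' end, and its capital marks that base.
Rnu1a1: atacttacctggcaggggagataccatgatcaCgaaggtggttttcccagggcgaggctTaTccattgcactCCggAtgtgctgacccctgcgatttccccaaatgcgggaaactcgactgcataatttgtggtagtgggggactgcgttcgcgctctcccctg
Rnu1b2: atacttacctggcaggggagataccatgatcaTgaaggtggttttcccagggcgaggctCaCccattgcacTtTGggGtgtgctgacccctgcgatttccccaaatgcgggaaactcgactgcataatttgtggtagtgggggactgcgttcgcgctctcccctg
Gm22513: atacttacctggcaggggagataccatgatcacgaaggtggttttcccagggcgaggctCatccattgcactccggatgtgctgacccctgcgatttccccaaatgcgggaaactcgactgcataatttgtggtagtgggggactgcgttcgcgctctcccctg

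U2 is represented by Rnu2-10 (chr11:101658238-101658428, plus strand, intergenic), with the branch point pairing motif GTAGTA in capitals, and by Gm25939 (chr1:72255008-72255198, plus strand, within the lincRNA D230017M19Rik), where capitals mark its substitutions T69C, C78T and G109C against Rnu2-10.
Rnu2-10: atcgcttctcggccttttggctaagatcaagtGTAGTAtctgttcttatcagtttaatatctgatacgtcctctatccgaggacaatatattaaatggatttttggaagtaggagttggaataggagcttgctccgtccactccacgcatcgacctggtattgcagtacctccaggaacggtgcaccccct
Gm25939: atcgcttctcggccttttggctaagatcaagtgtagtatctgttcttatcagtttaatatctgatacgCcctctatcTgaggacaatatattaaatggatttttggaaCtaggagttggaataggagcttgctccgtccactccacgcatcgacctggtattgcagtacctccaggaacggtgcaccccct

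The minor spliceosome RNAs Rnu11 (chr4:132270080-132270213, minus strand, opposite the lincRNA Gm28872) and Rnu12 (chr15:83149644-83149794, plus strand) and the 141-base Gm24265 (chr5:115489459-115489599, plus strand) are shown with the Sm-type motif in capitals, the kind of site on which the ring of Sm proteins assembles.
Rnu11: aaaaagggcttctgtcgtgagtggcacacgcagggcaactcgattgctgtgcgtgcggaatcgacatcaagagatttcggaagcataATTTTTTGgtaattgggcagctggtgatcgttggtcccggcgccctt
Rnu12: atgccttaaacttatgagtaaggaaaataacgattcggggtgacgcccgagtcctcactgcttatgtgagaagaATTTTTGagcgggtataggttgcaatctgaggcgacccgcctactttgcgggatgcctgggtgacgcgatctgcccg
Gm24265: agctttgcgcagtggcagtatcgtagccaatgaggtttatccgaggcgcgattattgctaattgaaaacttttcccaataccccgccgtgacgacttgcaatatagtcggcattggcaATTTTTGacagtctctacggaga

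Motifs were searched on the gene strand alone, over whole gene sequences, and a match is a run of letters and not a shown site of binding. The 5' splice site pairing motif ACTTACCTG was found in 21 of 48 members and in 3.98% of all 1383 snRNA genes. GTAGTA was found in 12 of 48 members against 3.69% of all snRNA genes. The Sm-type motif (ATTTNTG or ATTTTTTG) was found in 46 of 48 members and in 21.7% of all snRNA genes. Apart from sequence, 32 of 48 members had another member within 200 kb, and 36 of 48 overlapped no other gene on their strand. These shares were not computed over all snRNA genes, so whether they are particular to the members was not tested. Members and their host genes could differ in level: Gm22068 averaged 1529 FPKM at L2-cell and 12.22 FPKM at 4-cell, while its host Tex14 averaged 1.344 and 0.7166 FPKM. Other hosts varied. At L2-cell and 4-cell, Rock1, the host of Gm26244, averaged 150.5 and 64.78 FPKM. Rdm1, the host of Gm23849, averaged 6.405 and 6.676 FPKM, and Fcgr4, the host of Gm26110, 0 at both.

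Across the series, the labels put 57 samples in 18 groups, and the table held 43 columns. Whether a column headed as merged, or as cat at 17 h, holds 1 labelled sample or several is not stated. The 4-cell columns are numbered 3 and 4 in the table, whereas the labels number the 4-cell samples 1 and 2. The sequencing depth is unknown, since only FPKM values were used. Some libraries stood apart: rRNA rows summed to 1655 FPKM in KD-1cell 3, against 20937 to 33436 in the other KD-1cell, KD-2cell and Ctrl columns, and to 4328 FPKM in Early2c control 1, against 40994 to 64768 in the other Early2c columns. Late1c knockout 3 had 18342 FPKM of rRNA, against 2129 to 3143 in the other Late1c columns. The summed level of cumulus and granulosa cell markers was between 2.608 and 41.72 FPKM over the stages, with 24.53 to 26.19 FPKM at L2-cell and 39.89 to 41.72 at 4-cell. Sperm markers summed to between 0 and 8.24 FPKM, and their part in the results was not tested. In bulk samples, fewer cells of a type and less RNA per cell cannot be told apart.

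The U1, U2, U5, U11, U12 and 141-base snRNAs all had their highest summed level at L2-cell, and their 4-cell means were between 22.7 and 220.5 times lower than their L2-cell means. By stage mean, 45 of the 48 members had their highest level at L2-cell. The 3 others were Gm22710 (zygote), the U6-like Gm25047 (E2-cell) and the U5 row Gm23287 (blastocyst). The summed member level made up 0.7509% and 2.058% of all FPKM in the 2 MII columns, 3.267% and 4.786% at L2-cell, 0.08458% and 0.07589% at 4-cell, and 0.2318% and 0.2024% at blastocyst.

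**Figure D1:**
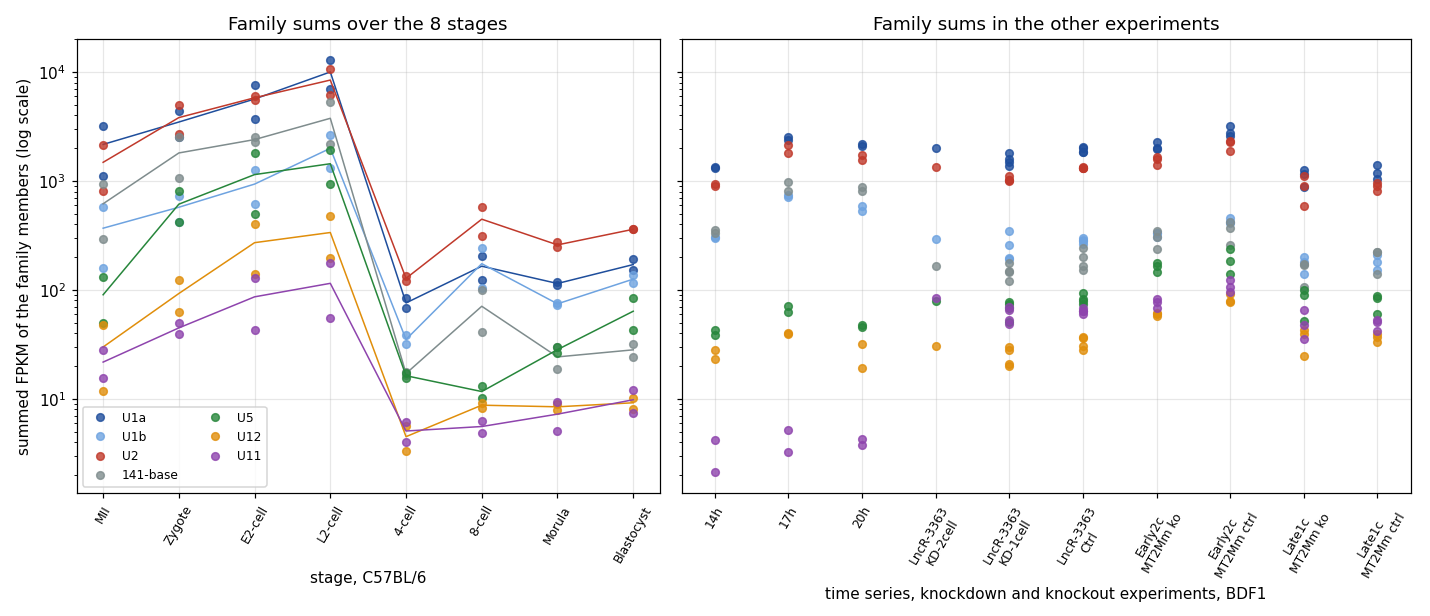
Summed FPKM of each snRNA family (log axis) in every deposited column (points), for the 8 stages (left, lines join stage means) and for the other experiments (right). U2 sums lie between 812.3 and 10730 FPKM from MII to L2-cell and between 119.8 and 581.7 FPKM from 4-cell to blastocyst.

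U1, which defines 5' splice sites, had summed levels (U1a and U1b together) of 1262 and 3807 FPKM at MII, 5153 and 2952 at zygote, 4324 and 8863 at E2-cell, and 8335 and 15710 at L2-cell. It had 122.3 and 99.65 FPKM at 4-cell, 228.1 and 450.2 at 8-cell, 193.5 and 184.2 at morula, and 327.4 and 265.2 at blastocyst. Every column up to L2-cell was above every column from 4-cell on, while the columns of neighbouring stages overlapped from MII to L2-cell. The L2-cell mean was 4.744 times the MII mean and 108.3 times the 4-cell mean, and the blastocyst mean was 2.67 times the 4-cell mean.

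U2, which pairs with the branch point, summed to 812.3 and 2156 FPKM at MII, 4936 and 2705 at zygote, 5568 and 6051 at E2-cell, and 6166 and 10730 at L2-cell. It summed to 135.5 and 119.8 FPKM at 4-cell, 309.9 and 581.7 at 8-cell, 245.2 and 272.6 at morula, and 360.4 and 359.7 at blastocyst. As with U1, the 8 columns up to L2-cell did not overlap the 8 later ones. The 141-base pair summed to 2183 and 5345 FPKM at L2-cell and 16.41 and 17.72 FPKM at 4-cell, a ratio of 220.5, above those of the U1, U2, U5, U11 and U12 sums.

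U5, which holds the exon ends, differed most between MII and L2-cell among these sums. It summed to 49.93 and 130.4 FPKM at MII, 802.2 and 422.5 at zygote, 499.6 and 1790 at E2-cell, and 935.1 and 1945 at L2-cell, so that the L2-cell mean was 15.97 times the MII mean. It then stood at 17.08 and 15.48 FPKM at 4-cell, 10.27 and 13.03 at 8-cell, 30.13 and 26.43 at morula, and 84.31 and 43.01 at blastocyst. All MII columns were below all zygote columns, and the 8-cell columns were the lowest of the 16.

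The minor spliceosome RNAs were less abundant and had a smaller step for U11. Rnu11 had 54.76 and 174.9 FPKM at L2-cell and 6.082 and 4.033 FPKM at 4-cell, a ratio of 22.7. U12 (Rnu12 and Gm24525) summed to 11.9 and 47.88 FPKM at MII, 194.4 and 478.3 at L2-cell and 5.672 and 3.305 at 4-cell. Its L2-cell mean was 74.94 times its 4-cell mean.

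Columns of one stage differed from each other by up to a few fold in a family sum, and the deposited column names carry tags that change with stage. MII 1 and zygote 2 have the tag b1, zygote 1 and E2-cell have b2, and MII 2 and L2-cell have b3, whereas columns from 4-cell on are marked as merged. The labels do not say what the tags stand for, and the tag and the stage cannot be told apart at the step between L2-cell and 4-cell. Earlier steps could be set within a tag. For U1, zygote over MII was 2.339 within b1, E2-cell over zygote was 1.28 within b2, and L2-cell over MII was 3.158 within b3. For U5 the same ratios were 8.462, 1.427 and 11.04, and for U12 they were 5.306, 2.223 and 7.026. For the 141-base pair, E2-cell over zygote was 0.9399 within b2, and its other within-tag ratios were 3.604 and 4.003.

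**Figure D2:**
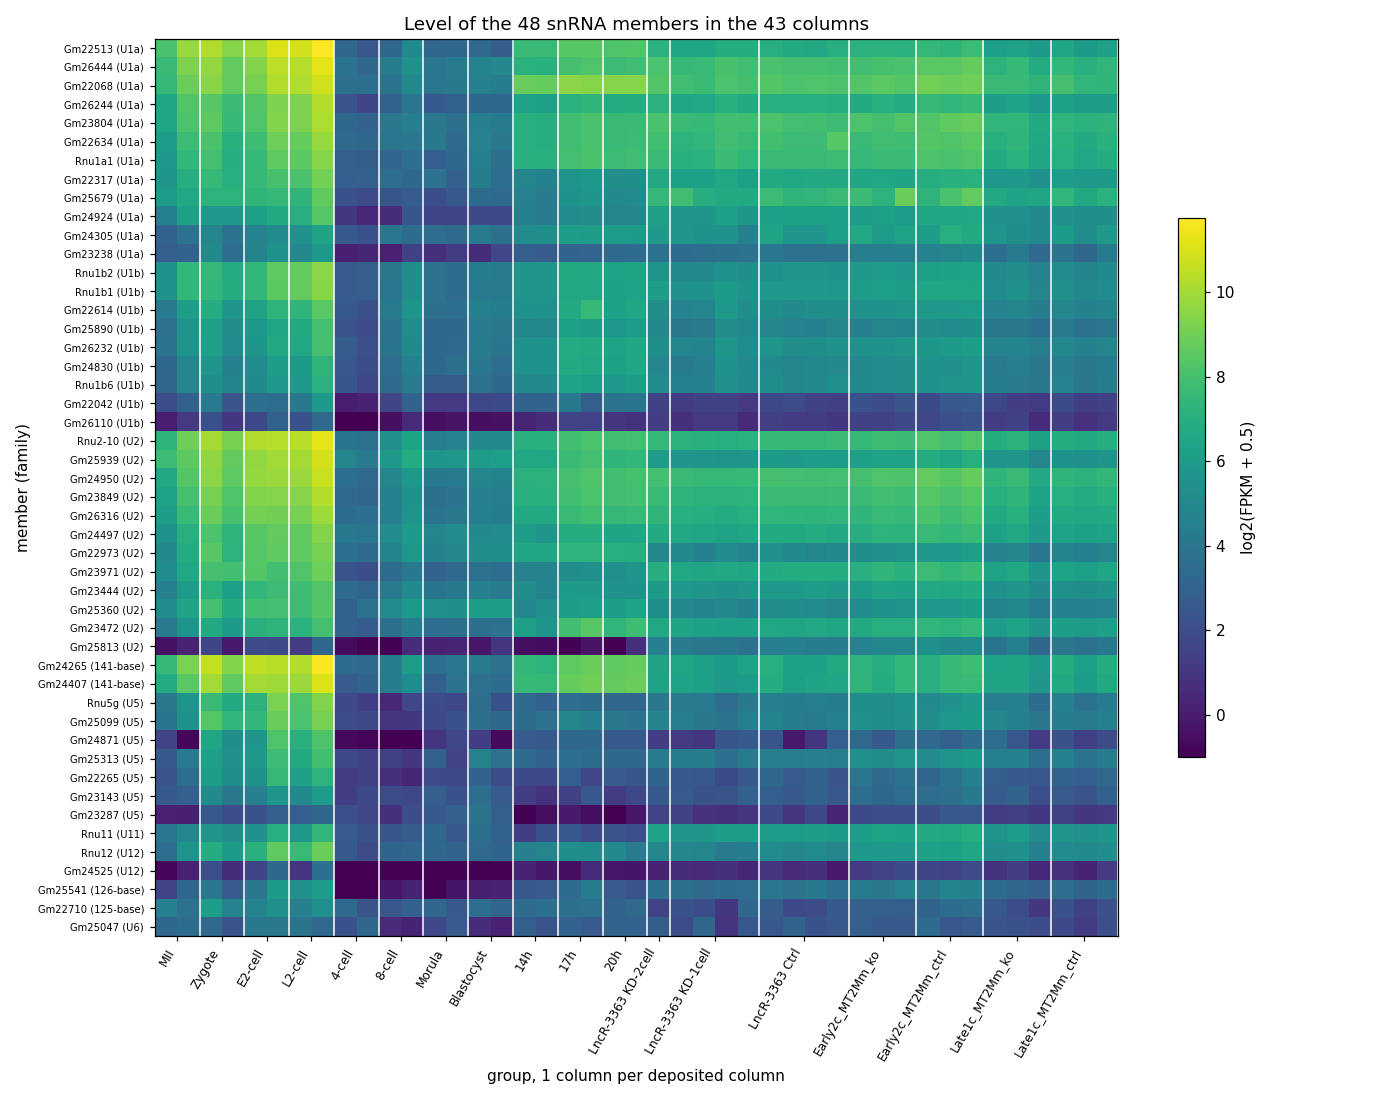
Level of each of the 48 members (rows, by family) in every deposited column (columns, by group), as log2(FPKM + 0.5). The columns from MII to L2-cell are high in nearly all rows, and the columns from 4-cell to blastocyst are low, with the Rnu2-10 row, for example, at 1337 and 2402 FPKM at L2-cell and 15.14 and 12.95 FPKM at 4-cell.

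Among single members at L2-cell, the highest stage means belonged to Gm22513, Gm24265 and Rnu2-10. Gm22513 had 1877 and 3430 FPKM at L2-cell and 8.575 and 5.046 FPKM at 4-cell. Rnu1a1, which differs from it by 1 base, had 364.2 and 693.4 FPKM at L2-cell and 6.743 and 6.236 FPKM at 4-cell. Gm22513 was thus several times above Rnu1a1 at L2-cell and beside it at 4-cell. Copies of one identical sequence also carried unequal values: the 7 members with the Rnu1a1 sequence ranged from 276.8 to 1850 FPKM in their L2-cell means and the 4 with the Rnu2-10 sequence from 392.2 to 1870 FPKM, whereas Rnu1b1 and Rnu1b2, identical to each other, had 563.1 and 566.9 FPKM. Near the threshold, the lowest members were Gm23287 (10.61 FPKM), Gm26110 (7.124), Gm24525 (6.676) and Gm25813 (5.278), and the rows just outside were Gm24967 (4.976 FPKM), Gm24596 (4.131), Gm23092 (4.003) and Gm24859 (3.94), all by highest stage mean.

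The mix of forms within a family was not the same on either side of the 4-cell stage. U1b members held 12.47% to 16.94% of the U1 sum in the 8 columns up to L2-cell. They held 31.3% and 31.98% at 4-cell, 45.44% and 54.3% at 8-cell, 39.09% and 39.75% at morula, and 41.72% and 43.16% at blastocyst. The 2 sets of columns did not overlap. Between L2-cell and 4-cell, the U1a mean was 132.1 times lower and the U1b mean 56.86 times lower, and from 4-cell to blastocyst the U1b mean was 3.579 times higher and the U1a mean 2.25 times higher.

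U2 rows on chromosome 1, the group of Gm25939, held 38.56% and 29.19% of the U2 sum at MII and 27.31% to 29.95% from zygote to L2-cell. They held 44.74% and 45.29% at 4-cell, 44.7% and 42.66% at 8-cell, 54.13% and 52.11% at morula, and 49.88% and 52.51% at blastocyst. Within U5, Gm23287 had the smaller step at 4-cell. It had 6.522 and 8.586 FPKM at L2-cell, 3.88 and 2.732 at 4-cell and 14.26 and 6.965 at blastocyst. Rnu5g had 298.8 and 636.5 FPKM at L2-cell, 3.033 and 2.065 at 4-cell and 11.06 and 4.069 at blastocyst. Reads of near-identical copies cannot be assigned with certainty, and their part in these shares was not tested.

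**Figure D3:**
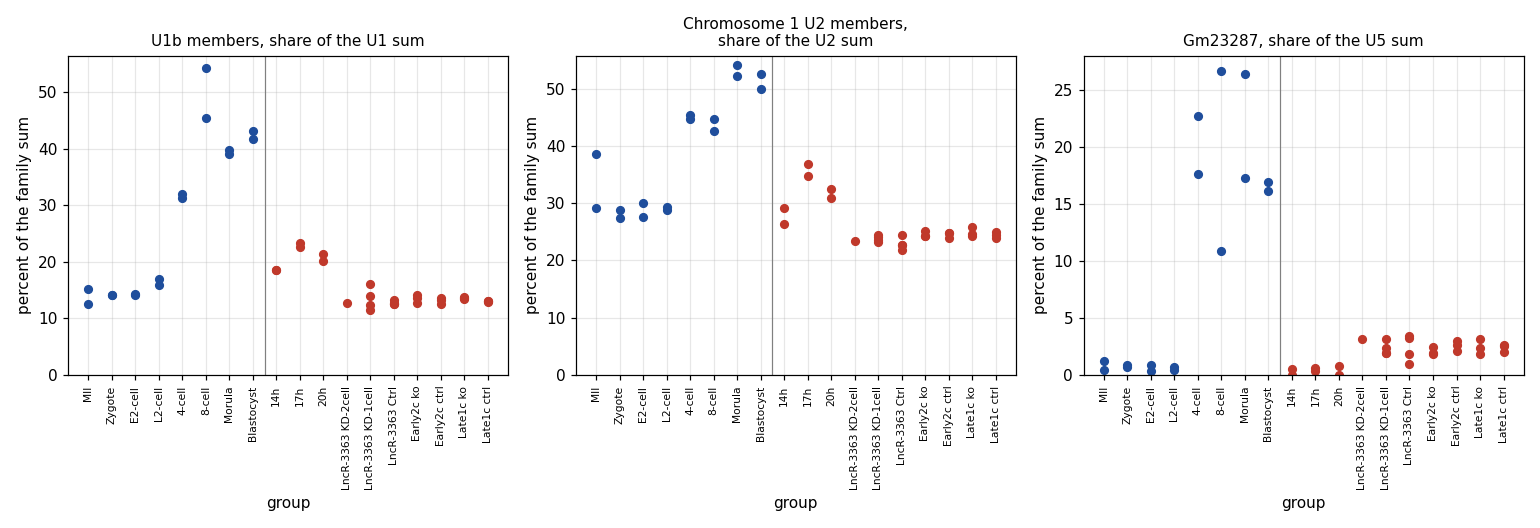
Share (percent) of the U1 sum held by U1b members, of the U2 sum held by chromosome 1 members and of the U5 sum held by Gm23287, with 1 point per deposited column, the 8 stages in blue and the other groups in red. U1b shares are 12.47% to 16.94% up to L2-cell and 31.3% to 54.3% from 4-cell on, and 18.52% to 23.23% in the 14 to 20 h columns.

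The step between L2-cell and 4-cell was set beside that of other short genes of at most 400 bases with at least 5 FPKM at L2-cell. The log2 ratio of 4-cell over L2-cell means, with 0.5 FPKM added to each, had a median of -5.85 over the 48 members, ranging from -8.50 to -0.83, and 45 of 48 (93.75%) were at or below -3. Over 138 small nucleolar RNA (snoRNA) rows the median was -1.64, with 41 (29.71%) at or below -3. Restricting snoRNAs to 100 to 200 bases, the length range of the members, left 84 rows with a median of -2.39 and 38.1% at or below -3. The median was -1.64 over 11 scaRNA rows, -1.89 over 39 miRNA genes, -2.51 over 12 misc_RNA rows and 0.48 over 61 processed pseudogenes, while over all 6426 rows at that level it was 0.01. The members were thus the biotype furthest down at this step, and most other classes of short noncoding genes also stood lower at 4-cell. Because the members were chosen on these stage means, no test is given. The 7SK RNA Rn7sk, a polymerase III product, averaged 27218 FPKM at L2-cell and 10393 FPKM at 4-cell, and protein coding rows summed to 159177 and 223483 FPKM.

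**Figure D4:**
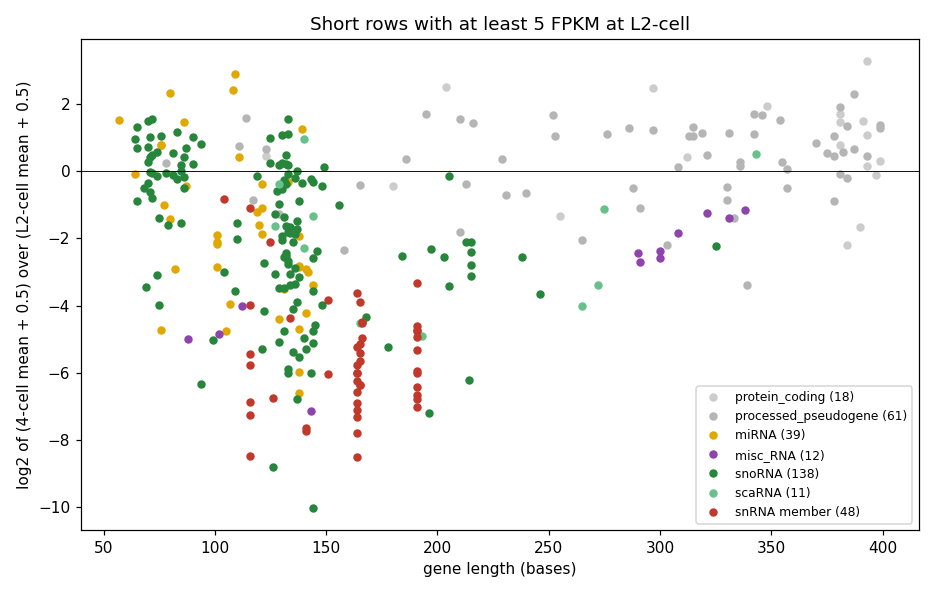
Log2 ratio of the 4-cell to the L2-cell mean, 0.5 FPKM added to each, against gene length in bases for genes of at most 400 bases with at least 5 FPKM at L2-cell, coloured by biotype. The snRNA members (median -5.85) lie below most snoRNA rows (median -1.64) and below the processed pseudogenes (median 0.48).

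At 17 h after fertilization, snRNA levels were about 2-fold those at 14 h. Rows were tested with limma on log2(FPKM + 0.5) using every row that reached 1 FPKM in enough columns to fill the smallest group. A call needed an adjusted p under 0.05 (Benjamini-Hochberg). Of the 48 members, 45 were tested, 36 were higher at 17 h and 0 lower, where 20.5% of all 12834 tested rows were called higher and 16.5% lower. At an unadjusted p under 0.05 the counts were 39 higher and 0 lower. The median log2 difference was 0.96 over the members and 0.05 over all rows. All 12 U1a, all 11 tested U2, 8 of 9 U1b and both 141-base members were higher, together with 2 of 6 tested U5 members and the 126-base Gm25541. The U11, U12, 125-base and U6-like rows were not called. Both 17 h columns are headed cat, whereas the 14 h and 20 h columns are headed as merged. Every comparison with 17 h, earlier or later, is thus also one between these headings, whose part was not tested. The 14 h and 20 h columns share a heading. Their summed member level averaged 2990 ± 67.45 FPKM at 14 h and 5287 ± 263.1 FPKM at 20 h (SD, n = 2 each), with no test of that difference.

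Rnu2-10 had 130.6 and 135.4 FPKM at 14 h, 238.6 and 279.9 FPKM at 17 h, and 225.8 and 247.6 FPKM at 20 h. The 14 h columns were below all later ones, and the 17 h and 20 h columns overlapped. The log2 difference at 17 h was 0.96 (SE 0.083, adjusted p = 0.000995, limma). Gm24265 had 173.1 and 152.5 FPKM at 14 h, 385.8 and 457.6 at 17 h, and 398.1 and 424.6 at 20 h, with a difference of 1.37 between 14 and 17 h (SE 0.096, adjusted p = 0.0006678) and no call between 17 and 20 h. Among U1b genes, Rnu1b1 had 48.76 and 47.51 FPKM at 14 h, 100.8 and 95.35 at 17 h, and 79.14 and 83.93 at 20 h, with no overlap between any of the 3 times. Summed U1 averaged 1640 ± 27.14 FPKM at 14 h, 3194 ± 144 at 17 h and 2696 ± 98.7 at 20 h (SD, n = 2 each). The minor form Rnu11 had low levels here, with 2.114 and 4.2 FPKM at 14 h, 5.147 and 3.217 at 17 h, and 4.239 and 3.771 at 20 h.

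Between 17 and 20 h, 15 of 45 tested members fell and 1 rose, where 14.5% of all rows were called lower and 5.13% higher. At an unadjusted p under 0.05 the counts were 27 lower and 1 higher, and the median log2 difference was -0.31 over the members and -0.07 over all rows. The members that fell were 4 U1a, 5 U1b, 2 U2, 2 U5, Gm25541 and Gm22710, and the 1 that rose was the U1a row Gm23238. Gm25541 had 5.035 and 5.727 FPKM at 14 h, 10.41 and 20.85 at 17 h, and 5.838 and 4.279 at 20 h, a log2 difference of 1.38 at 17 h (SE 0.31, adjusted p = 0.01633) and of -1.47 at 20 h (SE 0.31, adjusted p = 0.02387). Gm25939 fell by 0.44 on the log2 scale (SE 0.081, adjusted p = 0.01689), with 206.1 and 244 FPKM at 17 h and 159.7 and 171.1 at 20 h. This count rested on single columns: 7 members were called lower without 17 h column 2, 5 without 20 h column 1 and 9 without 20 h column 2, and Gm23238 was not called higher in any of these.

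In the LncR-3363 experiment, most U2 members were lower in KD-1cell embryos than in Ctrl embryos, and no member was called higher. All 48 members were tested, and 18 were lower and 0 higher, where 13.9% of 11492 tested rows were called lower and 29.8% higher. With no adjustment, 24 were lower and 0 higher at p under 0.05. The median log2 difference was -0.31 over the members and 0.12 over all rows. Lower members were 10 of 12 U2, 3 of 12 U1a, 2 of 9 U1b, 1 of 2 141-base, 1 of 2 U12 rows and Gm25541. None of the 7 U5 members and not Rnu11 were called.

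Rnu2-10 had 146.1, 135.9, 133.2 and 141.6 FPKM in KD-1cell embryos, against 186.1, 180.7, 177.8 and 189.5 FPKM in Ctrl embryos. All KD-1cell columns were below all Ctrl columns, and the log2 difference was -0.40 (SE 0.053, adjusted p = 0.0002961, limma). Gm25939, the chromosome 1 U2 form, had 52.05, 50.0, 47.66 and 53.38 FPKM in KD-1cell embryos and 60.41, 58.55, 65.18 and 63.33 FPKM in Ctrl embryos, again without overlap, and a difference of -0.28 (SE 0.060, adjusted p = 0.004026). Summed U2 averaged 1039 ± 50.75 FPKM in KD-1cell and 1325 ± 14.21 FPKM in Ctrl embryos (SD, n = 4 each).

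Summed U1 averaged 1814 ± 246.7 FPKM in KD-1cell and 2220 ± 136 FPKM in Ctrl embryos, and its columns overlapped. The overlap came from KD-1cell 3, the library with little rRNA, where U1 was 2148 FPKM against 1583 to 1839 FPKM in the other KD-1cell columns and 2096 to 2367 FPKM in Ctrl. Rnu1a1 had 136.6, 141.5, 202.4 and 168.4 FPKM in KD-1cell embryos and 201.7, 189.2, 188.8 and 221.7 FPKM in Ctrl embryos, and did not pass the test (-0.32, SE 0.12, adjusted p = 0.05766). Without KD-1cell 3, 22 members were called lower. Rnu12 had 29.05, 27.17, 18.96 and 19.87 FPKM in KD-1cell embryos, against 34.5, 29.3, 35.55 and 27.51 FPKM in Ctrl embryos. It was called lower (-0.43, SE 0.15, adjusted p = 0.04247) although its columns overlapped. The stage of the Ctrl embryos is not given, and stage and knockdown cannot be told apart. The single KD-2cell column, in no test, had U1 at 2310 FPKM and U2 at 1334 FPKM, each inside the Ctrl range (2096 to 2367 FPKM for U1 and 1309 to 1343 FPKM for U2).

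In the MT2Mm experiment, snRNAs were higher at Early2c than at Late1c in control embryos. Of 48 members, 47 were higher and 0 lower, where 33.5% of 13180 tested rows were called higher and 45.7% lower. The 1 member not called was the U1a row Gm25679 (log2 difference 0.93, adjusted p = 0.0502). The median difference was 1.26 over the members and -0.15 over all rows. Summed U1 averaged 3288 ± 337.6 FPKM in Early2c controls and 1388 ± 208.1 in Late1c controls, and U2 averaged 2171 ± 234.5 and 887.8 ± 70.05 FPKM (SD, n = 3 each). For Rnu1b1, Early2c controls had 91.53, 91.48 and 93.05 FPKM and Late1c controls 42.15, 30.47 and 34.59 FPKM, a difference of 1.37 (SE 0.15, adjusted p = 4.168e-06). The 141-base pair had the smallest family median, 0.84. The rRNA sum also differed between these groups (4328 to 64768 FPKM in Early2c controls and 2129 to 2695 FPKM in Late1c controls), and its part in the result was not tested.

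At Early2c, MT2Mm knockout embryos had lower snRNA levels than controls. The test called 26 of 48 members lower and 0 higher, where 15.6% of all rows were called lower and 33.4% higher, and at an unadjusted p under 0.05 it gave 30 lower and 0 higher. The median log2 difference was -0.42 over the members and 0.11 over all rows. The lower members were 9 of 12 U2, 7 of 12 U1a, 7 of 9 U1b, 1 of 7 U5, 1 of 2 U12 rows and Rnu11. Neither 141-base member was called. The Early2c controls are shared with the comparison between control stages.

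Rnu1a1 had 178, 206.7 and 190.9 FPKM in Early2c knockouts, against 292.1, 267.1 and 307.7 FPKM in Early2c controls. The groups did not overlap, and the difference was -0.59 (SE 0.15, adjusted p = 0.005757, limma). Rnu2-10 had 181.6, 217.1 and 205 FPKM in knockouts and 303.2, 242.6 and 307.6 FPKM in controls, also without overlap (-0.49, SE 0.19, adjusted p = 0.04588). The minor spliceosome RNA Rnu11 had 67.77, 82.73 and 77.94 FPKM in knockouts and 106.6, 95.61 and 123.1 FPKM in controls (-0.50, SE 0.18, adjusted p = 0.03724). Rnu12 had 55.62, 56.89 and 58.42 FPKM in knockouts and 76.62, 74.6 and 88.22 FPKM in controls (-0.48, SE 0.16, adjusted p = 0.02825). For both minor forms every knockout column was below every control column. Rnu5g, by contrast, had 40.14, 36.91 and 44.77 FPKM in knockouts and 34.11, 43.07 and 58.41 FPKM in controls, with overlap and no call (-0.12, SE 0.28, adjusted p = 0.742).

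Many of these adjusted p-values were close to the threshold, and the count rested on single columns. It was 17 without Early2c control 1, the library with little rRNA, 10 without Early2c control 3, 8, 16 and 14 without Early2c knockout 1, 2 and 3, and 31 without Late1c knockout 3. It was also 10 when low rows were not filtered out.

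At Late1c, 0 of 48 members were called in either direction by limma, where 0.0455% of all rows were called higher and 0.0683% lower, and 0 members passed an unadjusted p under 0.05. Rnu2-10 had 117.8, 145 and 76.26 FPKM in Late1c knockouts and 116.9, 106.9 and 124.3 FPKM in Late1c controls. The lowest value belonged to Late1c knockout 3, whose member sum was 1847 FPKM against 2607 and 2952 FPKM in the other knockouts and 2285 to 2920 FPKM in controls. The difference between the knockout effects at Early2c and at Late1c was itself tested as an interaction. It called 0 members in either direction, where 25.7% of all rows were called higher and 11.6% lower, and gave 10 members lower and 0 higher at an unadjusted p under 0.05. With Late1c knockout 3 left out it called 27 members lower, without Late1c control 1 it called 5, and without Early2c control 1 it called 1.

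**Figure D5:**
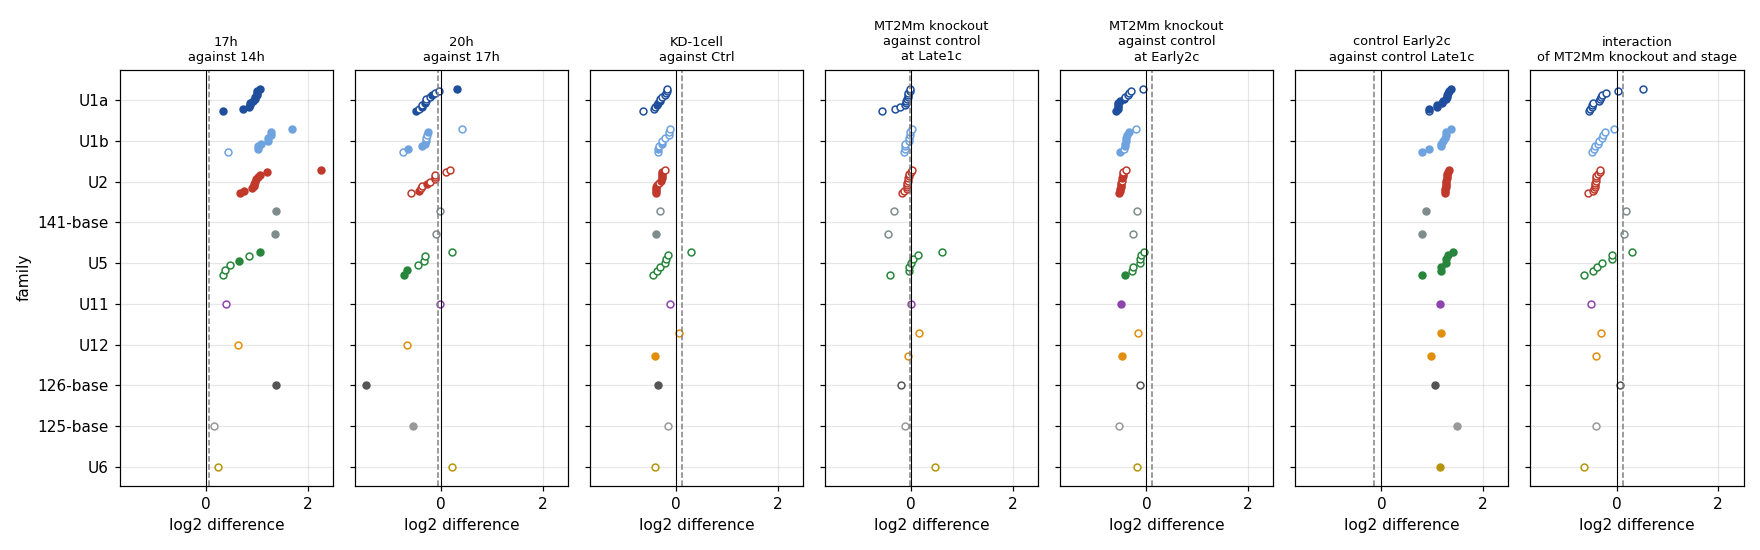
Differences (log2) of the members in each tested comparison, by family, with filled points for members called at an adjusted p under 0.05, open points for the others and a dashed line at the median of all tested rows. Members lie above that line at 17 h against 14 h and at Early2c against Late1c in controls, and mostly below it in KD-1cell against Ctrl and in Early2c knockout against control.

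The levels of Rnu11 and of a U2 row were lower in the 14 to 20 h columns than in the LncR-3363 and MT2Mm columns. Rnu11 was at 2.114 to 5.147 FPKM in the 14 to 20 h columns, but at 48.93 to 83.81 FPKM in the LncR-3363 columns and 35.39 to 123.1 FPKM in the MT2Mm columns. Among the stage columns, it was at 15.46 to 174.9 FPKM up to L2-cell and at 4.033 to 12.12 FPKM from 4-cell on. Gm25813, a U2 row, was at 0 to 1.181 FPKM in the 14 to 20 h columns and at 9.546 to 41.26 FPKM in the LncR-3363 and MT2Mm columns. It was also low in the stage columns, at 0 to 8.766 FPKM. Library kit, experiment and embryo stage cannot be told apart here, so these values are set side by side with no test. The share of U1b in U1 was 18.52% to 23.23% in the 14 to 20 h columns and 11.45% to 16.01% in the LncR-3363 and MT2Mm columns.

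The mRNAs of proteins that build and use these RNAs were read beside them. Of 108 genes in 12 lists (Sm core, U1, U2, U4/U6 and U5 proteins, minor spliceosome, Lsm ring, the U7 particle, the SMN complex, cap and transport factors, snRNA transcription, Integrator and U6 end factors), all were found in the table. The median level of the 8 Sm core genes, whose proteins form the ring on the Sm site, was 10.69 FPKM at MII, 24.22 at L2-cell, 43.58 at 4-cell and 60.83 at blastocyst, so it was higher at 4-cell and blastocyst, where the snRNA sums were lower. In the time series at 17 h, 20 of 100 tested genes of the lists were higher and 26 lower, where 20.5% of all rows were called higher and 16.5% lower. Strap, a component of the SMN complex that loads Sm rings, rose by 0.57 on the log2 scale (adjusted p = 0.0008521, limma). Gemin8 of that complex was lower at -0.29 (adjusted p = 0.02843), and its 7 tested genes had 2 higher and 1 lower. Snrpe, an Sm protein, rose by 0.44 (adjusted p = 0.002588), while Snrpd2, another, was lower at -0.48 (adjusted p = 0.02788). The 8 Sm core genes had 4 higher and 1 lower. Ints1, an Integrator subunit that acts in snRNA 3' end formation, fell by 0.84 (adjusted p = 0.001493). Between 17 and 20 h, 4 of 100 were higher and 19 lower, near the 5.13% and 14.5% of all rows. The lower genes included 5 of 13 tested Integrator subunits and 4 of 11 tested snRNA transcription genes, with 0 higher in either list. Of the 8 Sm core genes, 2 were higher and 0 lower.

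In KD-1cell embryos, 40 of 94 tested genes were higher and 19 lower than in Ctrl embryos, where 29.8% of all rows were called higher and 13.9% lower. All 3 U1 proteins were higher, with Snrnp70 at 0.83 (SE 0.14, adjusted p = 0.001196). Ssb, the La protein that binds polymerase III transcripts, was higher by 1.70 (SE 0.096, adjusted p = 1.397e-06), and the minor spliceosome gene Zcrb1 by 2.13 (SE 0.13, adjusted p = 2.73e-06). Cd2bp2, a U5 particle protein, was lower at -2.89 (SE 0.14, adjusted p = 6.267e-07), and Brf2, the polymerase III initiation factor used at U6 genes, was lower at -1.98 (SE 0.12, adjusted p = 2.331e-06).

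In Early2c control embryos against Late1c control embryos, 25 of 104 tested genes were higher and 65 lower, where 33.5% of all rows were called higher and 45.7% lower. The Sm core had 5 of 8 higher and 1 lower, including Snrpg at 1.10 (adjusted p = 1.523e-06) and Snrpf at 0.97 (adjusted p = 3.892e-06). Of the 17 U4/U6 and U5 proteins, 15 were lower, including Prpf3 at -2.38 (adjusted p = 1.946e-11). Ncbp1, the large subunit of the nuclear cap-binding complex, was higher by 2.82 (adjusted p = 1.74e-09), and Snupn, the import adaptor that carries snRNA particles back to the nucleus, was lower at -2.81 (adjusted p = 4.094e-11).

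In Early2c knockout embryos against Early2c controls, 52 of the 104 genes were higher and 11 lower, where 33.4% of all rows were higher and 15.6% lower. Snupn was higher by 1.37 (SE 0.086, adjusted p = 3.606e-07), Sf3a3, a U2 particle protein, by 1.42 (SE 0.096, adjusted p = 5.564e-07), Ssb by 1.15 (SE 0.070, adjusted p = 2.973e-07) and Brf2 by 1.35 (SE 0.059, adjusted p = 4.694e-08). Snapc3, a subunit of the factor that binds snRNA promoters, was lower at -0.85 (SE 0.12, adjusted p = 0.0001608, limma). Its list, snRNA transcription, went mostly the other way, with 7 of 12 genes higher and 2 lower. In the Late1c knockouts 0 of the 104 genes were called by limma. The interaction called 45 higher and 6 lower, where 25.7% of all rows were called higher and 11.6% lower.

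Finally, the genes most like each family over the 8 stage means were found by Pearson correlation of log2(FPKM + 0.5) among 11531 rows, as a description over 8 points that share the same columns. For U1 they were Scarna6 (r = 0.989), Snord22 (r = 0.9889) and Hist1h4c (r = 0.9838). For U2 they were Snord118 (r = 0.9864), the snoRNA gene Gm25394 (r = 0.9857) and Scarna6 (r = 0.9796). The 141-base pair was most like Snord22 (r = 0.9929), the vault RNA Vaultrc5 (r = 0.9925) and Scarna6 (r = 0.9914), and U5 was most like Snora15 (r = 0.98), the Y RNA Rny1 (r = 0.9728) and Gm25989 (r = 0.9727). Most of these are themselves short noncoding RNAs. The U6-like Gm25047 stood apart, with the protein coding genes Cript (r = 0.973), Fam126b (r = 0.9692) and Cpeb3 (r = 0.9599) closest to it.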

How the data were processed

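The series measured total RNA of mouse oocytes and embryos by RNA-seq. The authors deposited 1 table of FPKM values per gene and column. Per the labels' protocols, rRNA was removed, libraries were made with a TruSeq or, for small amounts, a SMARTer stranded total RNA kit, and reads were paired, of 150 bases. The labels do not assign a kit to each sample. Per the submitters' processing notes, the build was GRCm38 and the tools were HISAT2 2.1.0, StringTie 1.3.4d, cutadapt 1.18, Cuffdiff 2.2.1 and Cufflinks. How they treated fragments longer than a short gene, or reads that match several copies, is not given, and either can move the FPKM of a short gene by a large factor. Depth is unknown, so no counting interval is given.

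From these values, limma 3.58.1 (R 4.3.3, trended variance) was fitted on log2(FPKM + 0.5) to every row that reached 1 FPKM in enough columns to fill the smallest group, separately for the time series, the LncR-3363 experiment and the MT2Mm experiment, and p-values were adjusted by Benjamini-Hochberg over all tested rows. Fold changes are on that scale, which understates changes of low rows. The p-values measure the spread between columns, for which nothing says that they come from separate pools of animals. The fit was tested on simulated data. Families were assigned with Biopython 1.88 by identity to named snRNA genes among GENCODE M21 transcript sequences. Python 3.11.15, NumPy 2.4.6, pandas 2.3.3 and Matplotlib 3.10.9 were used. Members named in the text are those with an Rnu name, the 12 others with the highest stage mean, and up to 6 with the largest called change each way in each comparison; for the protein lists, they are up to 3 with the largest called change per list and comparison. Gm25047, Gm23287, Gm24525, Gm25813 and Gm26110 are also named as single members of a family or beside the threshold. The members and lists were chosen with earlier results of these data known, so counts over them are descriptions. Columns of the LncR-3363 experiment bear another name in the table and were matched to it by the names of their groups. Alternatives were other pseudocounts, no filter, scaled columns, a replicate block, fewer groups in the fit and each column left out. Sequences of the U5 rows are not reported here.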

Additional observations from a re-analysis of the deposited data

Results flagged for a closer look

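Gm22634 had 345.6 FPKM in LncR-3363 Ctrl 4, far from the other 3 Ctrl columns (213.6 to 232.2 FPKM). Gm25679 had 225.1 FPKM in KD-1cell 1, far from the other 3 KD-1cell columns (107.7 to 123.4 FPKM). Such gaps were looked for in every family sum and named member, and chance alone gives one in about 1 in 20 groups of this size. The U11 sum of the single KD-2cell column, which entered no test, was 83.81 FPKM, above the Ctrl columns (60.57 to 67.84 FPKM), and this difference has no replicate.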

How the results depend on the processing

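Of the values that answer a comparison, mostly counts of called members, 227 were rated the same under an alternative, 17 weaker and 6 stronger. For a count, the same means within 1.5 times the main count, and a count of 0 that stayed at 0 is included. A count has no sign, so these ratings do not show that directions held. Of the values of single members, 3302 kept their direction and their side of the threshold, 190 became weaker and 105 stronger. Another 89, not called under either setting, changed sign, and no called value did. The counts at 17 h against 14 h, at Early2c against Late1c in controls and for the Late1c knockout, the number of members and the family ratios between stages were among those within that range under every alternative run. At 20 h against 17 h, 0 members were higher and 5 lower without the filter, 0 were higher with a replicate block, and leaving out 1 column gave 0 to 1 higher and 5 to 16 lower. For KD-1cell against Ctrl, 10 were lower without the filter, 29 after scaling by the median of ratios, and 13 to 22 with 1 column left out. For the Early2c knockout, 10 were lower without the filter, 17 with a replicate block and 8 to 31 with 1 column left out. The interaction gave 15 lower after scaling by the median of ratios, 3 after scaling to an equal protein coding sum and 0 to 27 with 1 column left out. The cause was not tested. Scaling by the median of ratios moved the median of all rows to 0.01 in KD-1cell against Ctrl and to -0.02 in the Early2c knockout. Columns with the same replicate number had residual correlations from -0.138 to 0.1533. Columns of unlike number were not set beside them, so whether the numbers pair columns cannot be read from these values. The block gave 36 members higher at 17 h and 21 lower in KD-1cell. With depth unknown, differences of rows near 1 FPKM cannot be judged.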
